A study of Mus musculus with 6 samples.

Results

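The myogenic regulatory and Mef2 factors are the transcription factors that specify skeletal muscle and switch on its contractile genes. The 8 genes followed here were taken by symbol from the 22481 gene symbols of a protein-coding expression table, namely Pax7, Myf5, Myod1, Myog, Myf6, Mef2a, Mef2c and Mef2d. Ribosomal RNA was removed from the total RNA of mouse quadriceps before sequencing, and each gene has 1 FPKM value per library, that is, fragments normalised to transcript length and to the depth of the library. The knockout group (3 libraries) came from MCK-Cre+/-, Fbxw7 flox/flox mice, in which Cre is driven by the muscle creatine kinase promoter. The control group (3 libraries) carried the same Fbxw7 flox/flox alleles without Cre. The MCK promoter is active in differentiated muscle fibres, so the other cells of the muscle, satellite cells included, are not its targets. The labels used here give neither age nor sex, and do not say whether each library is a separate animal. Fbxw7 is the substrate-binding subunit of a ubiquitin ligase that sends phosphorylated proteins to the proteasome.

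Muscle stem cells, the satellite cells, carry Pax7, and activated satellite cells carry Myf5 and Myod1. Myog (myogenin) drives differentiation, and Myf6 (also called Mrf4) is the myogenic factor most abundant in adult fibres. These 4 basic helix-loop-helix factors pair with E proteins and bind the E-box, CANNTG. The Mef2 proteins are MADS-box factors that bind an A- and T-rich element and act with the myogenic factors on muscle genes, while class II histone deacetylases such as Hdac4 and Hdac5 hold them in check. In denervated mouse muscle Hdac4 and Myog rise and the genes of the acetylcholine receptor follow.

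The library labels were checked with Fbxw7 itself (chromosome 3, positions 84815268 to 84979198 of build mm10, plus strand). Fbxw7 had 4.02, 3.86 and 3.81 FPKM in knockout muscle, against 6.51, 6.23 and 6.36 FPKM in control muscle. Every knockout library was below every control library, and RNA remained in the knockout, in a tissue that also holds cells without the MCK-driven Cre. The log2 change was -0.69 ± 0.12 (SE, limma adjusted p = 0.0028), and p was 0.1 in an exact two-sided permutation test, whose floor with 3 libraries per group is this value. Estimated sequencing depth was 3150448 to 6704264 fragments in the knockout libraries and 8435763 to 11783878 in the control libraries, so depth differed between the groups without overlap. Among the 11659 genes that averaged 0.5 FPKM or more, 34.6% changed at a limma adjusted p under 0.05, 24.5% upward and 10.1% downward, and the median log2 change over all of them was 0.21. In a bulk sample, fewer cells of a type and less RNA per cell cannot be told apart.

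Of the 8 factors, 6 passed the filter on low values; Pax7 and Myf5 lay under it. On the deposited FPKM, 3 of the 6 tested factors rose in knockout muscle (Myog, Mef2c and Mef2d), against 24.5% of all tested genes, and none fell, against 10.1%. The calls depended on how libraries were scaled. With median-of-ratios scaling, which brings the median log2 change of all genes to 0.01, none of the 6 rose, against 14.8% of all genes, and 2 fell (Myf6 and Mef2a), against 17.3% (32.1% in either direction). With quantile normalization Mef2c and Mef2d rose, against 14.7% of all genes, and none fell, against 14.5% (29.3% in either direction). The groups did not overlap for 4 of the 6, against 49.8% of all tested genes. Knockout libraries were all higher for 3 of them, against 35.7%, and all lower for Myf6, against 14.0%. None of the 6 changed 1.5-fold on the deposited scale. Between 32.9% (for Myog) and 94.6% (for Myod1) of all tested genes had a larger absolute log2 change.

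**Figure D1:**
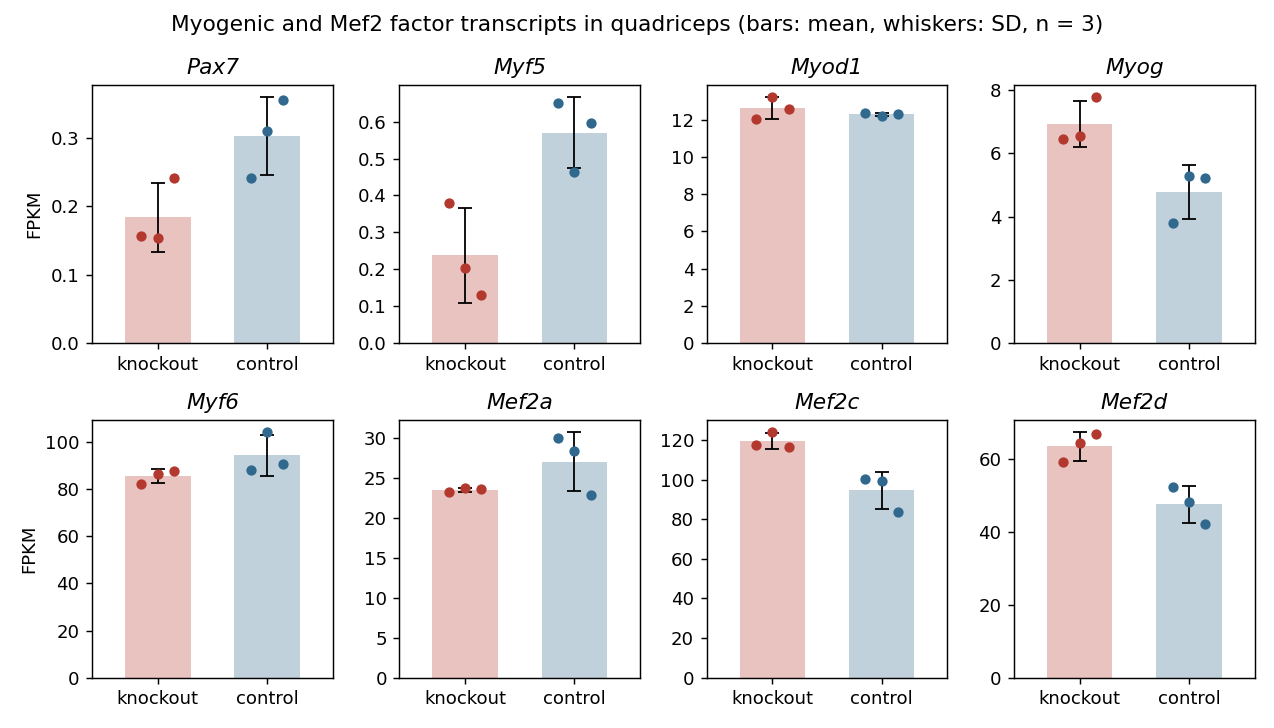
FPKM of each of the 8 factors in every library, knockout on the left and control on the right of each panel; points are libraries and the bar is the group mean with its SD (n = 3). Myog, Mef2c and Mef2d lie higher in all 3 knockout libraries, while Myod1 and Mef2a overlap between the groups.

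Pax7 and Myf5 were scarce in whole muscle. Pax7 (chromosome 4, 139737062 to 139833528, minus strand) had 0.156, 0.154 and 0.242 FPKM in knockout muscle, against 0.242, 0.311 and 0.356 FPKM in control muscle. The knockout values lie lower without overlap, but by a margin that vanishes at 3 digits between the highest knockout and the lowest control library. These levels rest on 2, 9 and 7 estimated fragments in the knockout libraries and 21, 28 and 23 in the control libraries. Myf5 (chromosome 10, 107482908 to 107486134, minus strand) had 0.380, 0.203 and 0.130 FPKM in knockout muscle, against 0.650, 0.463 and 0.597 FPKM in control muscle. Each knockout library held 2 to 4 estimated fragments of Myf5, and each control library 13 to 19. All 3 knockout libraries were thus lower for Myf5. On the FPKM the mean log2 difference was -1.05 for Myf5 and -0.51 for Pax7, and in the signal columns, which are not divided by length, it was -1.20 for Myf5 and -1.13 for Pax7. The signal per unit of FPKM of Pax7 was 33.8, 61.5 and 38.9 in knockout muscle, against 61.5, 61.4 and 61.5 in control muscle, so 2 knockout libraries differ in the length behind their FPKM. An exact two-sided permutation test gave p = 0.1 for each gene, again the smallest possible. When every gene above 0 was tested, limma's adjusted p was 0.0668 for Myf5 and 0.176 for Pax7. Neither gene passed the test at this depth.

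Myod1, the determination factor (chromosome 7, 46376474 to 46379099, plus strand), had 12.1, 13.2 and 12.6 FPKM in knockout muscle, against 12.4, 12.2 and 12.4 FPKM in control muscle. The knockout range encloses the control values. The log2 change was 0.04 ± 0.09 (SE), with a 95% interval of -0.18 to 0.25 and a limma adjusted p of 0.791. The sign turned under the other scalings, to -0.17 with median-of-ratios scaling and -0.13 with quantile normalization, neither of which passed the test.

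Myog (chromosome 1, 134289989 to 134292548, plus strand) had 6.46, 6.54 and 7.78 FPKM in knockout muscle, against 3.80, 5.29 and 5.23 FPKM in control muscle. All knockout libraries lie above all control libraries, with the third knockout library highest and the first control library lowest. Its mean was 6.92 ± 0.739 FPKM in knockout and 4.77 ± 0.843 FPKM in control muscle (SD, n = 3 each), a 1.45-fold difference. The log2 change was 0.54 ± 0.16 (SE, 95% interval 0.16 to 0.91, limma adjusted p = 0.0344), the largest among the factors that were tested. The values rest on 35, 88 and 82 estimated fragments in the knockout libraries and 76, 109 and 78 in the control libraries. The call was lost with median-of-ratios scaling (0.34, adjusted p = 0.166), with quantile normalization (0.30, adjusted p = 0.232), and without knockout replicate 2 (0.58, adjusted p = 0.0661), knockout replicate 3 (0.45, adjusted p = 0.104) or control replicate 1 (0.39, adjusted p = 0.101). As a rank within each library, which no scaling moves, Myog lay at percentiles 53.5 to 58.5 of the tested genes in knockout and 43.7 to 54.2 in control muscle.

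The sequences just before the start sites of the 3 factors that rose are shown because the myogenic factors and Mef2 are known to act on the Myog promoter through an E-box and a Mef2 element. Each is 250 bases from RefSeq on build GRCm38.p6, written 5′ to 3′ on the gene's strand, ending at the base before the start site, with matches to CANNTG or CTANNNNTA on either strand in capitals.
Myog, chr1:134289754-134290003, plus strand: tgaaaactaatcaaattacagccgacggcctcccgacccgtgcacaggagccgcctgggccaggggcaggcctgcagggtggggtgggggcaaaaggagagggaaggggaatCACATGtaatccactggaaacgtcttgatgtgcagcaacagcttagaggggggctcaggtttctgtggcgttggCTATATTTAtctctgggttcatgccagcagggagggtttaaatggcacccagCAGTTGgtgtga
Mef2c (the most upstream of 3 listed starts), chr13:83503784-83504033, plus strand: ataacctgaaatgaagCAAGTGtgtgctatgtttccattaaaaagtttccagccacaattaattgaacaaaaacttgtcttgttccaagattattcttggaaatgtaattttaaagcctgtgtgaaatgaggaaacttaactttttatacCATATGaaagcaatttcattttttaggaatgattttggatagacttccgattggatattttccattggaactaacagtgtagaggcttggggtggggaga
Mef2d, chr3:88142122-88142371, plus strand: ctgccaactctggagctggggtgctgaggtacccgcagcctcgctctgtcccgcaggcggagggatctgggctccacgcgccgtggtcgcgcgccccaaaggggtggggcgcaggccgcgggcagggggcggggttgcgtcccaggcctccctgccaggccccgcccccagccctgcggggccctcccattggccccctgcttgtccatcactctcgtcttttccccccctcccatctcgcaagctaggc

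The Myog window holds CANNTG at 138 and 12 bases before the start and CTANNNNTA at 64 bases before it, each counted to the first base of the match. The window of Mef2c holds CANNTG at 234 and 100 bases before its start, and that of Mef2d holds neither set of letters. Over 32851 mouse promoters, 66.2% of windows of this length hold CANNTG and 19.0% hold CTANNNNTA, so both are common. Windows were found for 6 of the 8 factors. Those of Pax7 and Mef2a hold neither motif, that of Myf5 holds a pair of overlapping CTANNNNTA matches, and the most downstream start of Mef2c holds 1 match to each. No window of a member, Myog included, matched the stricter Mef2 consensus YTAWWWWTAR (Y is C or T, W is A or T, R is A or G). Over all promoters, 2.92% of windows hold it.

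Myf6, the factor of mature fibres (chromosome 10, 107492853 to 107494737, minus strand, 6718 bases from Myf5), was the most abundant of the myogenic factors. It had 82.3, 86.6 and 87.8 FPKM in knockout muscle, against 87.9, 104 and 90.8 FPKM in control muscle. The knockout libraries lie lower without overlap, by a narrow margin between the highest knockout and the lowest control library. The mean was 85.6 ± 2.92 FPKM in knockout and 94.3 ± 8.71 FPKM in control muscle (SD, n = 3 each). The log2 change of -0.14 ± 0.08 (SE, 95% interval -0.32 to 0.05) did not pass the test (limma adjusted p = 0.219). It stood 0.35 below the median of all genes, and 47.8% of tested genes stood further from that median. With median-of-ratios scaling the change was -0.34 with an adjusted p of 0.00959, and with quantile normalization -0.04 with an adjusted p of 0.723.

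Among the Mef2 factors, Mef2c (chromosome 13, 83504034 to 83667080, plus strand) was the most abundant. Its levels were 117, 124 and 117 FPKM in knockout muscle, against 101, 99.4 and 83.7 FPKM in control muscle. The groups do not overlap, and the third control library is the lowest of all 6. The means of 119 ± 4.05 FPKM in knockout and 94.6 ± 9.39 FPKM in control muscle (SD, n = 3 each) differ 1.26-fold, with a log2 change of 0.34 ± 0.08 (SE, 95% interval 0.15 to 0.53, limma adjusted p = 0.0149). The call was lost with median-of-ratios scaling (0.14, adjusted p = 0.132) and without knockout replicate 2 (0.31, adjusted p = 0.0561), while quantile normalization gave 0.44 with an adjusted p of 0.00578.

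Mef2d (chromosome 3, 88142372 to 88172086, plus strand) had 59.2, 64.5 and 66.8 FPKM in knockout muscle, against 52.2, 48.1 and 42.2 FPKM in control muscle. The groups again do not overlap. Mean levels of 63.5 ± 3.92 FPKM in knockout and 47.5 ± 5.03 FPKM in control muscle (SD, n = 3 each) gave a 1.34-fold difference and a log2 change of 0.42 ± 0.10 (SE, 95% interval 0.20 to 0.64, limma adjusted p = 0.0106). The deposited signal columns, which are not divided by transcript length, gave 0.22 with an adjusted p of 0.195, and median-of-ratios scaling of the FPKM gave 0.22 with an adjusted p of 0.0594. The signal per unit of FPKM, which follows the transcript length the authors' software assigned to a gene, was 27.0, 28.0 and 29.7 for Mef2d in knockout muscle, against 31.0, 32.9 and 35.4 in control muscle. That ratio was lower in every knockout library, by 0.23 on the log2 scale, and 10.2% of tested genes moved more in it. Mef2d has 7 annotated transcripts, and its end overlaps a gene on the opposite strand, 1700113A16Rik, from which its reads cannot be set apart where strand was not used in counting.

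Mef2a (chromosome 7, 67231163 to 67372858, minus strand) had 23.2, 23.7 and 23.6 FPKM in knockout muscle, against 29.9, 28.3 and 22.9 FPKM in control muscle. The knockout libraries lie close together and the third control library falls below them, so the groups overlap. The log2 change was -0.19 ± 0.11 (SE, 95% interval -0.45 to 0.06, limma adjusted p = 0.208). Without control replicate 3 it was -0.31 with an adjusted p of 0.0327, and with median-of-ratios scaling -0.40 with an adjusted p of 0.0111. Quantile normalization gave -0.27 with an adjusted p of 0.0763, which did not pass the test. Mef2a shares bases with Lysmd4 on the opposite strand.

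**Figure D2:**
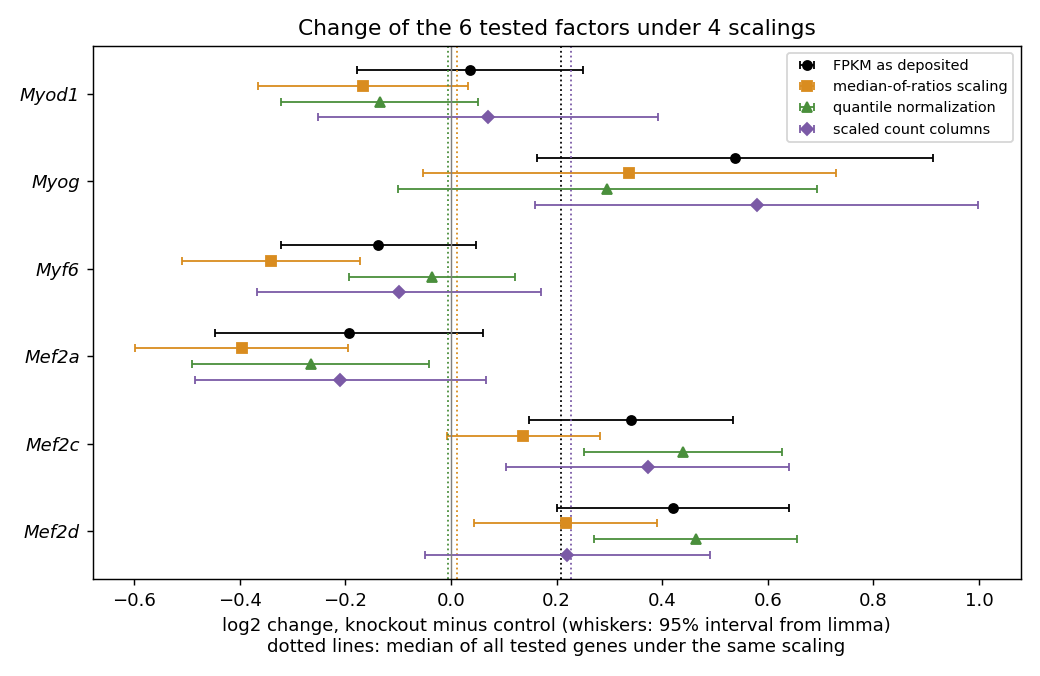
Log2 change (knockout minus control) of the 6 tested factors, with 95% intervals, on the deposited FPKM, with median-of-ratios scaling, with quantile normalization and from the deposited signal columns headed as counts; dotted lines are the medians of all tested genes. Median-of-ratios scaling moves all 6 downward, with Myog at 0.34 and Mef2a at -0.40, and Mef2a is the lowest of the Mef2 genes on all 4 scales.

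Shares within a library do not move with a scaling that applies 1 factor per library, such as median-of-ratios. Quantile normalization, which changes each value by its rank, does move the distance between genes, and the log2 changes of Myf6 and Myog were -0.04 and 0.30 with it, against -0.14 and 0.54 on the deposited FPKM. The Mef2 genes summed to 200, 212 and 207 FPKM in knockout muscle, against 183, 176 and 149 FPKM in control muscle. Mef2a made up 11.6%, 11.2% and 11.4% of that sum in knockout muscle, against 16.4%, 16.1% and 15.4% in control muscle, so the knockout shares lie well below the control ones relative to the spread within each group (means 11.4% ± 0.224 and 15.9% ± 0.528, SD, n = 3 each). The share of Mef2d was 29.6%, 30.4% and 32.3% in knockout muscle, against 28.6%, 27.4% and 28.4% in control muscle. By the deposited signal, which is not divided by length, the groups overlapped for Mef2d, with 14.8%, 15.9% and 18.0% in knockout muscle, against 16.2%, 16.2% and 17.8% in control muscle, and the knockout mean was the lower one. Mef2c held 58.8%, 58.5% and 56.4% in knockout muscle, against 55.0%, 56.5% and 56.3% in control muscle, with overlap. By signal the shares of Mef2c did not overlap, with 72.4% ± 1.20 in knockout and 67.4% ± 0.567 in control muscle, and those of Mef2a stayed apart, with 11.4% ± 0.526 and 15.8% ± 0.493 (SD, n = 3 each). The ratio of Mef2c to Mef2a was 5.07, 5.24 and 4.96 in knockout muscle, against 3.36, 3.51 and 3.66 in control muscle.

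The 4 myogenic factors summed to 101, 107 and 108 FPKM in knockout muscle, against 105, 122 and 109 FPKM in control muscle, with overlap. Their makeup differed. Myog supplied 6.38%, 6.14% and 7.18% of the sum in knockout muscle, against 3.63%, 4.33% and 4.79% in control muscle, and Myf6 supplied 81.3%, 81.3% and 81.1%, against 84.0%, 85.3% and 83.3%. Neither pair of ranges overlaps, by FPKM or by signal. The ratio of Myf6 to Myog was 12.4 ± 1.01 in knockout and 20.1 ± 2.90 in control muscle (SD, n = 3 each). Myod1 supplied 11.9%, 12.4% and 11.6% in knockout muscle, and its highest control share of 11.8% lies within that range. The ratio of Mef2c to Myf6 was 1.43, 1.43 and 1.33 in knockout muscle, against 1.14, 0.954 and 0.922 in control muscle. These shares are descriptions without a test.

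**Figure D3:**
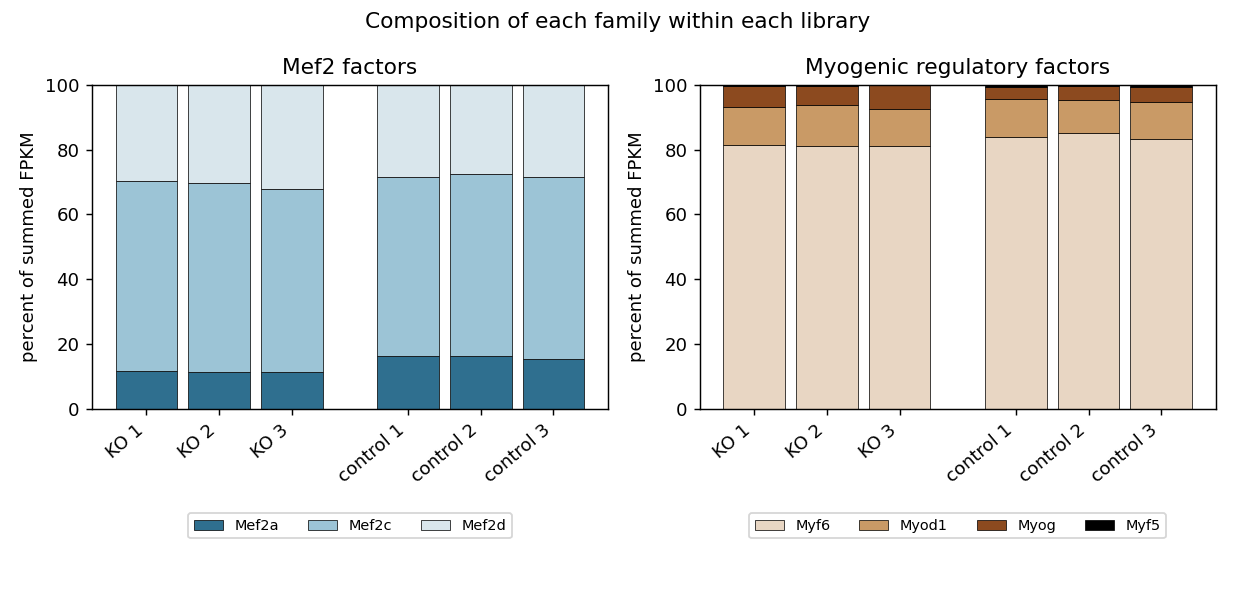
Stacked bars of the percent of summed FPKM within each library, for the 3 Mef2 genes and for the 4 myogenic factors; each bar is 1 library, with knockout (KO) on the left of control. Mef2a sits at 11.2% to 11.6% in the knockout libraries and at 15.4% to 16.4% in the control libraries, and Myog at 6.14% to 7.18% in the knockout and 3.63% to 4.79% in the control libraries.

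By FPKM, which is per transcript length, the order in knockout muscle was Mef2c, Myf6, Mef2d, Mef2a, Myod1 and Myog, each with a range that does not touch the next, followed by Myf5 and Pax7, which overlap. In control muscle Mef2c (83.7 to 101 FPKM) and Myf6 (87.9 to 104 FPKM) could not be ranked, and the order after them was the same, with Myf5 above Pax7. The genes whose levels were most like those of Myog over the 6 libraries were Ftsj2, Panx1 and Ccl12, with Pearson's r of log2 values of 0.997, 0.992 and 0.990. Among 9976 genes compared, 61 had r above 0.95, and all share the libraries and the difference between groups.

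The partners and inhibitors of the myogenic factors held single genes with larger log2 changes than any factor. Of 3 E proteins, the dimer partners, Tcf12 rose, with 7.95, 11.1 and 12.4 FPKM in knockout muscle, against 5.35, 5.61 and 3.12 FPKM in control muscle (log2 change 1.17 ± 0.25, SE, limma adjusted p = 0.00786). Tcf3 and Tcf4 were not called. Of 16 inhibitors, all of which were tested, 4 rose and none fell, and the share that rose is close to the 24.5% of all tested genes. Id2, which binds E proteins without contacting DNA, had 5.26, 5.22 and 4.96 FPKM in knockout muscle, against 1.96, 2.54 and 1.91 FPKM in control muscle (1.24 ± 0.16, adjusted p = 0.000691). Mdfi, which binds the myogenic factors directly, had 1.23, 1.54 and 2.88 FPKM in knockout muscle, against 0.249, 0.533 and 0.342 FPKM in control muscle (2.02 ± 0.38, adjusted p = 0.00435). Its control mean was 0.375 FPKM, so it passed the filter of 0.5 FPKM only through the knockout libraries. Snai1 and Zeb1, repressors that bind E-boxes, rose by 1.33 and 0.64 on the log2 scale; the call on Zeb1 was lost under quantile normalization (0.42), without knockout replicate 2 (0.50) and without control replicate 3 (0.55). The inhibitors' median log2 change was 0.21, as for all tested genes at this precision. Median-of-ratios scaling gave 4 raised and 1 lowered, where 14.8% of all tested genes rose and 17.3% fell. Quantile normalization gave 3 raised and 2 lowered, where 14.7% rose and 14.5% fell.

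Of 12 tested factors upstream of the myogenic factors, 1 rose and 3 fell, under all 3 scalings. Among all tested genes, 24.5% rose and 10.1% fell on the deposited FPKM. Those shares were 14.8% and 17.3% with median-of-ratios scaling, and 14.7% and 14.5% with quantile normalization. Six2, a homeobox factor, had 2.50, 2.97 and 2.42 FPKM in knockout muscle, against 6.43, 7.11 and 7.22 FPKM in control muscle (log2 change -1.37 ± 0.14, SE, limma adjusted p = 0.000205). Eya1 and Eya3 are coactivators of such homeobox factors, and they moved in opposite directions. Eya1 averaged 3.33 ± 0.342 FPKM in knockout and 6.31 ± 0.732 FPKM in control muscle, and Eya3 averaged 6.26 ± 0.159 and 2.97 ± 0.966 FPKM (SD, n = 3 each). Lbx1, a homeobox factor of limb muscle precursors, fell by 0.48 on the log2 scale.

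Of 19 tested regulators and cofactors of Mef2, 7 rose and 3 fell, where 24.5% of all tested genes rose and 10.1% fell. Their median log2 change was 0.22, against 0.21 for all genes. Each of the other scalings gave 5 raised and 3 lowered. The shares of all genes there were 14.8% and 17.3% with median-of-ratios scaling, and 14.7% and 14.5% with quantile normalization. Sik1, a kinase that phosphorylates class II histone deacetylases, had 6.33, 7.06 and 7.36 FPKM in knockout muscle, against 2.27, 2.38 and 1.80 FPKM in control muscle (1.65, limma adjusted p = 0.000131). Vgll2, a muscle cofactor of Tead and Mef2 proteins, had 55.6, 74.0 and 76.2 FPKM in knockout muscle, against 28.5, 30.9 and 30.5 FPKM in control muscle (1.18, adjusted p = 0.000212). The Camk2 kinases, which phosphorylate Hdac4, differed among themselves. Camk2a fell, with 49.2 ± 3.15 FPKM in knockout and 108 ± 14.9 FPKM in control muscle, whereas Camk2d rose, with 31.8 ± 2.08 and 17.2 ± 1.80 FPKM (SD, n = 3 each). Hdac4 averaged 7.59 ± 0.188 FPKM in knockout and 5.93 ± 0.461 FPKM in control muscle (SD, n = 3 each), a log2 change of 0.35 with an adjusted p of 0.0445, a call lost in 10 of 16 alternatives, among them the leaving out of any 1 library (0.30 to 0.41). Mapk14, the p38 kinase that phosphorylates Mef2, fell by 0.40 on the log2 scale, and Tead4, a Vgll2 partner, had a change of -0.61 whose call was also lost when any 1 library was left out (-0.69 to -0.47).

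**Figure D4:**
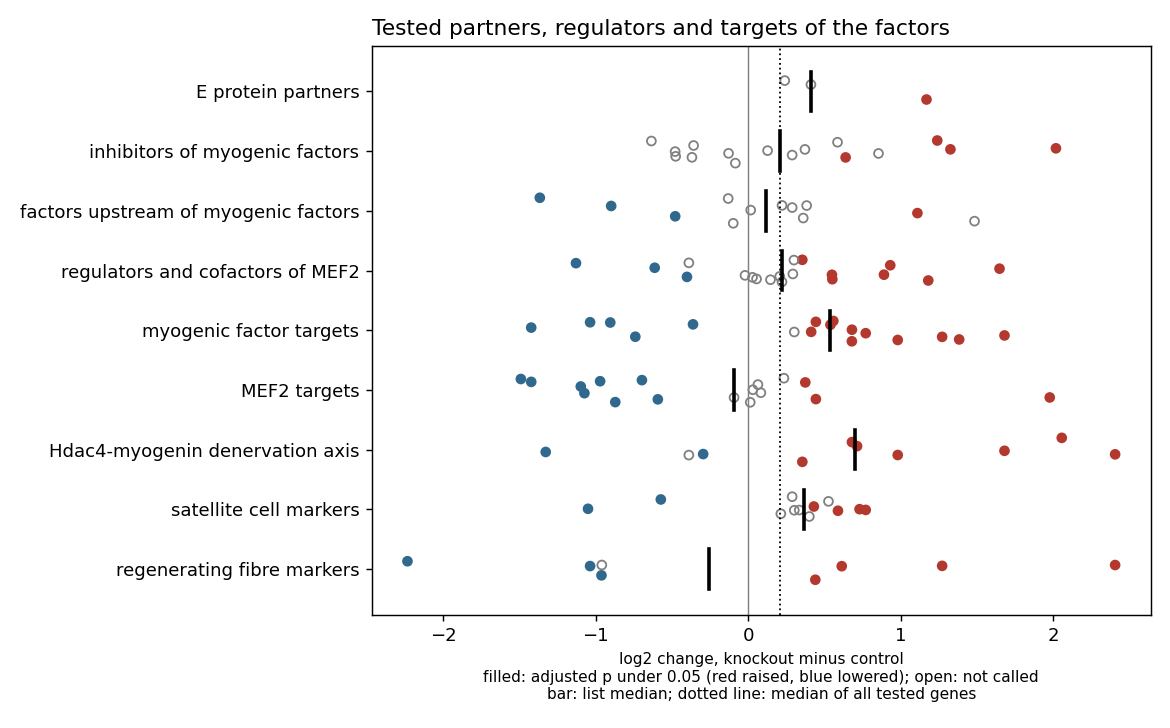
Log2 change (knockout minus control) of every tested gene in each list around the factors; filled points passed the limma test, black bars are list medians and the dotted line is the median of all tested genes, 0.21. The denervation list has the highest median, 0.70, and the list of regenerating fibre markers has called genes on both sides.

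Genes known as targets of the myogenic factors moved both ways. Of 17 tested, 11 rose and 5 fell, where 24.5% of all tested genes rose and 10.1% fell. Median-of-ratios scaling gave 9 raised and 5 lowered, where 14.8% of all tested genes rose and 17.3% fell. Quantile normalization gave 9 and 4, where 14.7% rose and 14.5% fell. Their median log2 change was 0.54, against 0.21 for all genes. Actc1, the cardiac actin that immature skeletal muscle also makes, had 345, 381 and 377 FPKM in knockout muscle, against 150.0, 155 and 151 FPKM in control muscle (1.27, limma adjusted p = 3.48e-06). Rb1, the cell cycle brake that accompanies differentiation, averaged 9.74 ± 0.597 FPKM in knockout and 3.69 ± 0.480 FPKM in control muscle (1.38, adjusted p = 0.000167). Ckm, the muscle creatine kinase, was lower in knockout muscle, with 5360 ± 206 FPKM against 14387 ± 825 FPKM in control muscle (SD, n = 3 each; -1.42, adjusted p = 1.4e-06). The Cre transgene is driven by the promoter of this gene. Myl1, a fast myosin light chain, had -0.74 on the deposited FPKM and 0.20 (adjusted p = 0.515) under quantile normalization.

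The acetylcholine receptor genes, named here after their values were seen, are known targets of Myog. Chrna1 averaged 6.75 ± 0.651 FPKM in knockout and 4.17 ± 0.229 FPKM in control muscle (SD, n = 3 each), with a log2 change of 0.68. Chrnb1 rose by 0.56. Chrnd had 2.22, 3.13 and 3.40 FPKM in knockout muscle, against 1.32, 0.692 and 0.609 FPKM in control muscle, a change of 1.68 (limma adjusted p = 0.00379). The adult subunit Chrne had a change of 0.54, called on the deposited FPKM and lost under both other scalings. Not every subunit gene on the list could be tested. Chrng averaged 0.543 FPKM in knockout and 0.27 FPKM in control muscle, which lay under the filter of 0.5 FPKM, and its groups overlapped. The kinase Musk, which clusters the receptor, had a change of 0.98 that was not called without knockout replicate 2 (0.85). Rapsn, the protein that anchors the receptor in clusters, had 8.56, 9.02 and 7.69 FPKM in knockout muscle, against 10.7, 10.3 and 11.6 FPKM in control muscle. Its change of -0.36 was called (limma adjusted p = 0.0361), and the call was lost when any 1 library was left out (-0.41 to -0.30).

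The list of the Hdac4 and Myog response to denervation shares 4 genes with the targets above. Of its 10 tested genes 7 rose and 2 fell on the deposited FPKM, where 24.5% of all tested genes rose and 10.1% fell. Under each of the other scalings 6 rose and 2 fell. The shares of all genes there were 14.8% and 17.3% with median-of-ratios scaling, and 14.7% and 14.5% with quantile normalization. Runx1, a transcription factor induced by denervation in mouse muscle, had 1.80, 2.55 and 2.61 FPKM in knockout muscle, against 0.597, 0.472 and 0.376 FPKM in control muscle (2.06, limma adjusted p = 0.00063). Its control mean was 0.482 FPKM, so it passed the filter of 0.5 FPKM only through the knockout libraries. Ncam1, the adhesion molecule that spreads over denervated fibres, had 6.55, 4.94 and 5.24 FPKM in knockout muscle, against 1.26, 1.31 and 0.530 FPKM in control muscle (2.40, adjusted p = 0.000701). Gadd45a rose by 0.71. Trim63, the ubiquitin ligase of muscle atrophy that also rises after denervation, went the other way, with 42.9, 43.9 and 40.5 FPKM in knockout muscle, against 102, 112 and 106 FPKM in control muscle (-1.33). Fbxo32, the other atrophy ligase, had -0.30, a call lost without knockout replicate 2 or 3 or control replicate 1 or 2 (-0.29 to -0.26). Nothing in the labels says that nerves were cut. Of 7 tested Schwann cell markers, 4 rose, against 24.5% of all tested genes. The summed level of these markers was 116 to 127 FPKM in knockout and 76.4 to 85.1 FPKM in control muscle. The part of Schwann cells in these values was not tested.

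Targets of Mef2 fell more often than they rose on the deposited FPKM. Of 17, all of which were tested, 3 rose and 8 fell, where 24.5% of all tested genes rose and 10.1% fell, with a median log2 change of -0.09. With median-of-ratios scaling 2 rose and 9 fell, against 14.8% and 17.3% of all genes, and the list median minus that of all genes was -0.31. Under quantile normalization 5 rose and 7 fell, against 14.7% and 14.5% of all genes, and the median stood 0.007 from that of all genes. Xirp1, an actin-binding protein of fibre repair, had 79.2, 88.0 and 91.7 FPKM in knockout muscle, against 23.9, 23.0 and 18.9 FPKM in control muscle (1.98, limma adjusted p = 7.14e-06). The other raised targets were Mb and Des. Mb averaged 4019 FPKM in knockout and 3104 FPKM in control muscle (0.37), a call lost under median-of-ratios scaling. Des, also on the list of myogenic factor targets, averaged 1244 and 914 FPKM (0.44). Slc2a4, the insulin-responsive glucose transporter, had 112, 116 and 108 FPKM in knockout muscle, against 227, 223 and 208 FPKM in control muscle (-0.97). Aldoa, a glycolytic enzyme, fell by 1.49 on the log2 scale, a call lost under quantile normalization, and Ckm is on this list as well. Among 12 skeletal muscle markers, 3 rose and 8 fell, and they summed to 35092 to 36746 FPKM in knockout and 78638 to 80996 FPKM in control muscle. The part of that lower sum of fibre transcripts, and of the scaling it bears on, in the members' changes was not tested beyond the scalings given here.

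Satellite cell markers other than the members moved both ways. Of 12 tested, 4 rose and 2 fell on the deposited FPKM, where 24.5% of all tested genes rose and 10.1% fell. Under each of the other scalings 2 rose and 2 fell. The shares of all genes there were 14.8% and 17.3% with median-of-ratios scaling, and 14.7% and 14.5% with quantile normalization. The summed level of the satellite cell markers was 82.1 to 88.0 FPKM in knockout and 72.5 to 77.5 FPKM in control muscle. Abundant genes carry that sum, and it hides the scarce markers that lay under the filter and were not tested. Calcr averaged 0.0109 FPKM in knockout and 0.104 FPKM in control muscle, and Megf10 averaged 0.0645 and 0.116 FPKM. Both were lower in every knockout library, whereas Tenm4 (0.140 and 0.152 FPKM) overlapped between the groups. Sdc4 (12.4 FPKM in knockout and 7.47 FPKM in control muscle) and Cdh15 (8.04 and 4.72 FPKM) were higher, Fgfr1 (17.0 and 25.3 FPKM) was lower, and Fgfr4, at -1.05, lost its call without knockout replicate 2 or 3 or any 1 control library (-1.19 to -0.89). Fgfr4 averaged 0.313 FPKM in knockout muscle and passed the filter only through the control libraries. Regenerating fibre markers split as well, with 4 raised and 3 lowered of 8 tested. Myh3, the embryonic myosin, had 0.836, 0.986 and 0.640 FPKM in knockout muscle, against 4.63, 4.30 and 3.67 FPKM in control muscle (-2.23, limma adjusted p = 0.000123), and Myh8, the perinatal myosin, fell by 0.96. Mybph, a myosin-binding protein, averaged 107 ± 9.41 FPKM in knockout and 70.1 ± 4.82 FPKM in control muscle. Tmem8c, the fusion protein also called myomaker, had -1.04 and lost its call without any 1 control library (-1.05 to -1.03). Of 10 proliferation genes, 2 passed the filter, and Mcm2 had -0.72, a call lost without knockout replicate 1 or 2 or control replicate 1 or 2 (-0.72 to -0.59).

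Markers of other cell types moved beside the factors in part. Among all tested genes, 24.5% rose and 10.1% fell on the deposited FPKM. All 6 tested B cell markers rose, and the list summed to 15.4 to 18.3 FPKM in knockout and 0.0855 to 0.231 FPKM in control muscle, where 7 of 10 markers were listed at 0 in every library. These 6 passed the filter only through the knockout libraries. Of 10 macrophage markers 2 were called, both raised. None was called under median-of-ratios scaling, where 32.1% of all tested genes were called in either direction. The median log2 change of the macrophage markers stood 0.07 above that of all genes. They summed to 181 to 207 FPKM in knockout and 154 to 177 FPKM in control muscle, and 8 markers of fibro-adipogenic progenitors, of which 4 rose and 1 fell, to 591 to 680 FPKM in knockout and 534 to 565 FPKM in control muscle. Mef2c is also made in B cells and other blood cells. The part of these cells in the level of Mef2c was not tested. Endothelial markers, from cells that also make Mef2c, had 1 raised and 1 lowered of 10, and summed to 133 to 144 FPKM in knockout and 138 to 146 FPKM in control muscle.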

How the data were processed

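Per the submitters' processing notes, the authors used cutadapt 1.9.3, HISAT2 2.0.4, build mm10, Cufflinks and Cuffdiff; further versions: not given in the sources used here. In 22564 protein-coding rows, the deposited table has FPKM values made by the authors for 6 libraries; 1 line was emptied for this work. How the authors scaled libraries, and whether counting used strand, is not stated. A second set of deposited columns, headed as counts, is a scaled signal: 92.6% to 94.2% of values above 0 were whole multiples of 1 constant per library (tolerance 0.1), too few for a count test, and estimated fragments are the signal divided by that constant. Depth limits Pax7 and Myf5 most.

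Rows sharing a symbol were summed (79 symbols, no member). Log2(FPKM + 0.1) was compared in limma 3.58.1 (R 4.3.3, empirical Bayes with mean-variance trend) over the 11659 genes averaging 0.5 FPKM or more, with Benjamini-Hochberg adjustment over all of them and a threshold of 0.05. Fold changes on this scale understate low genes. Since the labels name no separate animals, p-values reflect only the spread between these samples, which may be technical. The fit was tested on simulated data.

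Members and lists were chosen with earlier results of these data known. Named genes are the 8 members, Fbxw7, and the 3 genes most like the called member with the largest change. In each list and direction, up to 3 called genes with the smallest p were eligible, and not all of these are named. Others (Zeb1, the receptor subunits, Musk, Rapsn, Hdac4, Calcr, Megf10, Tenm4) were added after their values were seen. Alternatives were pseudocounts of 0.01 and 1, no filter and a filter of 2 FPKM, the 2 other scalings, no trend, the signal columns, a replicate block, a threshold of 0.01 and each library left out. Positions are from GENCODE on mm10, promoters from RefSeq on GRCm38.p6.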

Additional observations from a re-analysis of the deposited data

How the results depend on the processing

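The calls on the 6 tested members depended on the scaling between libraries, while Pax7 and Myf5 moved most with the pseudocount or the signal columns. With median-of-ratios scaling the log2 changes were Myod1 -0.17, Myog 0.34, Myf6 -0.34, Mef2a -0.40, Mef2c 0.14 and Mef2d 0.22, with 0 members raised and 2 lowered, 1724 genes raised and 2018 lowered, and 1 inhibitor lowered. With quantile normalization Myod1 was -0.13 and Myog 0.30, with 1715 genes raised, 2 inhibitors lowered, 5 Mef2 targets raised and Myl1 at 0.20. A pseudocount of 1 gave -0.14 for Pax7 and -0.35 for Myf5, and the signal columns gave -1.13 for Pax7 and 0.22 for Mef2d. Myog (0.54) lost its call with no filter (adjusted p = 0.0608), and Myog and Mef2c (0.34) without the trend (adjusted p = 0.0508 and 0.0633), which left 1 member raised. At a threshold of 0.01 none of Myog, Mef2c and Mef2d (0.42) was called, 0 members were raised, and 1460 genes rose and 708 fell. Leaving out 1 library at a time gave Pax7 -0.65 to -0.41, Myf5 -1.33 to -0.80, Myod1 0.00 to 0.07, Myog 0.39 to 0.62, Myf6 -0.19 to -0.06, Mef2a -0.31 to -0.12, Mef2c 0.26 to 0.39 and Mef2d 0.34 to 0.49, with 1 to 3 members raised (1 without knockout replicate 2), 0 to 1 lowered (1 without control replicate 3), 2029 to 2786 genes raised and 817 to 1090 lowered. In shares of summed signal, an alternative chosen after seeing the data, the difference (knockout minus control, in percentage points) was 4.99 for Mef2c, -0.524 for Mef2d and -0.477 for Myf5. The causes were not tested. Of 79 called list genes, 52 were called under every alternative. Same-numbered libraries deviated with correlations of -0.07, 0.20 and 0.18, and not every library correlated best with its own number. Deviations from a mean of 3 libraries are tied to one another, so these correlations cannot exclude a batch shared by number. With the replicate block 3 members were raised, 0 were lowered, 2655 genes rose and 1173 fell (Myog 0.54, adjusted p = 0.0320).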
